A study of Mus musculus with 6 samples.

Results

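Genes of cholesterol and fatty acid synthesis, with the regulators of that synthesis and the genes of cholesterol efflux, were followed in the whole mouse retina after optic nerve crush (ONC). They were chosen by gene symbol from a list of 31 symbols, of which 30 were among the 35485 genes in the data. The remaining symbol, Msmo1, was not listed, but its older symbol, Sc4mol, was, and Sc4mol is described below without being counted. RNA-seq was performed on retinas of wild-type C57BL/6 mice, 12 weeks old, taken 2 days after surgery. In the ONC group the nerve was squeezed for 10 seconds at 2 mm behind the eye, which damages the axons of retinal ganglion cells (RGCs). In the sham group the nerve was exposed by the same surgery but left intact. Each group had 3 samples, and each sample pooled RNA of 6 retinas from separate mice, so the spread between samples is a spread between pools and not between animals. Because whole retinas were used, fewer cells of a type and less RNA per cell cannot be told apart.

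Animal cells build cholesterol from acetyl-CoA. The mevalonate pathway yields isoprenoid units, which are joined into squalene, closed to lanosterol and trimmed to cholesterol. When sterols in the endoplasmic reticulum are low, Scap carries the SREBP transcription factors to the Golgi for cleavage, and the released factors turn on the genes of synthesis and of uptake. When sterols are high, Insig proteins hold Scap back, while oxysterols activate the LXR nuclear receptors, which turn on the export pumps Abca1 and Abcg1. Neural tissue makes much of its own cholesterol, and in the retina Müller glia are regarded as a main site of this synthesis.

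Levels are exon reads divided by exon length and library size, in the manner of RPKM, but with the TMM-scaled sum of exon reads as the library size (normalized level). They can be compared between genes as well as between samples. All 30 genes passed the filter, which asked for an RPKM averaging more than 0.3 in either group, and were among the 13670 genes tested. A gene is called changed when edgeR's quasi-likelihood test gave a Benjamini-Hochberg adjusted p under 0.1 over all tested genes, and a differentially expressed gene (DEG) when its fold change was also above 1.5. Exon reads numbered 17343945 to 18349331 in the sham samples and 20019818 to 20358008 in the ONC samples.

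Of the 30 genes, 4 fell after ONC and 0 rose. They were Hmgcs1 and Idi1 of the mevalonate pathway, Hsd17b7 of the late sterol steps, and Stard4, a carrier of sterol inside the cell. Over all tested genes 6.09% changed, with 3.72% lower and 2.38% higher in ONC. None of the 30 was a DEG, against 1.66% of all tested genes. At an unadjusted p under 0.05, 12 of the 30 passed, 11 of them lower in ONC, against 16.7% of all tested genes in either direction and 8.99% lower. By normalized level, every ONC sample was below every sham sample in 8 of the 30 genes, against 10.8% of all tested genes. In 1 other gene, Nr1h2, every ONC sample was above, against 11.0%. These counts depend on the scaling: in deposited RPKM the groups overlapped for Fdps, Sqle, Cyp51 and Insig1, which are among the 8. The shares over all tested genes were not computed for RPKM. The differences were small, and the largest, that of Hsd17b7, was a fall of 29.1%. DESeq2's Wald test called the same 4 genes. When reads were instead scaled by all reads on genes, as in the deposited RPKM, Hmgcs1 was still called, the calls of Idi1, Hsd17b7 and Stard4 were lost (adjusted p = 0.335, 0.107 and 0.128, edgeR's quasi-likelihood test with Benjamini-Hochberg adjustment), and Nr1h2 passed in the upward direction. Limma on log2 RPKM called none of the 4.

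Hmgcs1 encodes the cytosolic HMG-CoA synthase, which makes the substrate of the rate-limiting reductase of the mevalonate pathway. Its level was 54.0, 53.6 and 56.1 in the sham samples and 47.8, 41.4 and 40.4 in the ONC samples. The 3 ONC samples were all lower, with ONC replicate 1 nearest to the sham samples. The log2 fold change was -0.34 (SE 0.067, n = 3 per group), a fall of 20.8% with a 95% interval of -28.2% to -12.7%, and edgeR's quasi-likelihood test gave a Benjamini-Hochberg adjusted p of 0.00512. The call was lost with limma on log2(RPKM + 0.1) and on log2(RPKM + 1), at log2 fold changes of -0.22 and -0.21 (adjusted p = 0.121 and 0.118). In the data the gene lies at chr13:119690462-119708077 and has 11 exons.

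Idi1 encodes isopentenyl-diphosphate isomerase, which interconverts the isoprenoid building blocks. Its level was 29.3, 28.5 and 31.4 in sham and 26.0, 25.5 and 23.2 in ONC. The groups did not overlap, and the log2 fold change was -0.26 (SE 0.072, n = 3 per group, adjusted p = 0.0539 by edgeR's quasi-likelihood test with Benjamini-Hochberg adjustment). Of the exon reads of Idi1, 12.1 to 17.4% per sample mapped to it alone and the rest also matched elsewhere, so its count is uncertain. With unique reads alone the log2 fold change was -0.32 and the call was lost (adjusted p = 0.312, edgeR's quasi-likelihood test with Benjamini-Hochberg adjustment). The call was also lost with total gene reads (adjusted p = 0.169, the same test). It was lost as well without sham replicate 2, sham replicate 3 or ONC replicate 3 (adjusted p = 0.104, 0.253 and 0.243, the same test). The gene lies at chr13:8885606-8892396 with 5 exons.

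Hsd17b7 encodes the 3-ketosteroid reductase that acts when methyl groups are stripped from lanosterol. It was a low gene, at 3.87, 3.79 and 4.49 in sham and 2.79, 2.98 and 2.84 in ONC, from 253 to 349 exon reads per sample. The ONC samples lay close together and below every sham sample. The log2 fold change was -0.50 (SE 0.129, n = 3 per group, adjusted p = 0.0337 by edgeR's quasi-likelihood test with Benjamini-Hochberg adjustment). Without sham replicate 3 or ONC replicate 3 the call was lost (adjusted p = 0.201 and 0.123, the same test). The gene lies at chr1:169949537-169969205 with 9 exons.

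The bases before the RefSeq start of these 3 genes (build GRCm38.p6) are shown because each was called lower and because Hmgcs1 is a known SREBP target. Stard4, which was also called lower, had no such sequence in the RefSeq table. Whether the falls share a cause was not tested. Each run holds the 250 bases before the start, read 5′ to 3′ on the gene's strand, at chr13:119690101-119690350 (plus strand) for Hmgcs1, chr13:8885356-8885605 (plus strand) for Idi1 and chr1:169969206-169969455 (minus strand) for Hsd17b7. Capitals mark the letters of 3 motifs searched on both strands: the core of the sterol regulatory element bound by SREBPs (TCACNCCAC), the CCAAT box bound by NF-Y, a partner of SREBPs (CCAAT, which reads ATTGG on the other strand), and the E-box (CACGTG).
Hmgcs1: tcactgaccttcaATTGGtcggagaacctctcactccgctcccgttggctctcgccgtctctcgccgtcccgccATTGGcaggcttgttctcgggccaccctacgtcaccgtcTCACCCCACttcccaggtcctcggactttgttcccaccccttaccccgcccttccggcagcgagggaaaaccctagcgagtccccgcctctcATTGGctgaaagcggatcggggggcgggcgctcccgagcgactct
Idi1: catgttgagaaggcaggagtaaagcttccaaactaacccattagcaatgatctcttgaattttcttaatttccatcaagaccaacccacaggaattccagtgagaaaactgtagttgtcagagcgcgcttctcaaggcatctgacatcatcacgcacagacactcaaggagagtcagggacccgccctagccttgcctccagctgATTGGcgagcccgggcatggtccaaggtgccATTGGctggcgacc
Hsd17b7: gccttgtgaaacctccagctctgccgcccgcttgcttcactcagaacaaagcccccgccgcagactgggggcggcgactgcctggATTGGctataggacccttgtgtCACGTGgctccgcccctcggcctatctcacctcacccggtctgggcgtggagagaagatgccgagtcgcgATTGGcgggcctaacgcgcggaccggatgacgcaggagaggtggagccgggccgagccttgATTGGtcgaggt
The motifs do not overlap each other in these runs. The Hmgcs1 run holds 3 CCAAT boxes and 1 sterol regulatory element core, whose first base is at -137 from the RefSeq start. For Hmgcs1 that start lies upstream of the gene start in the data (chr13:119690462), so positions counted from the latter would differ. The Idi1 run holds 2 CCAAT boxes, at -45 and -14, and the Hsd17b7 run holds 3, beside an E-box at -143. Of the 31 listed symbols, 24 had such a window in the RefSeq table. The CCAAT letters stood in 18 of the 24 (75%), against 40.4% of the 9860 tested genes with a window, and the E-box letters in 6 of the 24 (25%), against 9.81%. The sterol regulatory element core stood in 1 of the 24, that of Hmgcs1, against 1.20% of the tested genes. A match is a run of letters, not a measured binding site, and these shares were not tested.

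The fourth gene, Stard4, encodes a soluble carrier that moves cholesterol between membranes. Its level was 8.46, 7.74 and 7.40 in sham and 6.24, 5.90 and 5.06 in ONC. All ONC samples lay below all sham samples, and the log2 fold change was -0.46 (SE 0.122, n = 3 per group, adjusted p = 0.0400 by edgeR's quasi-likelihood test with Benjamini-Hochberg adjustment). The count rested on 314 to 441 exon reads per sample, all of them unique to the gene. Without sham replicate 1, sham replicate 2 or ONC replicate 3 the call was lost (adjusted p = 0.141, 0.117 and 0.198, the same test).

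**Figure D1:**
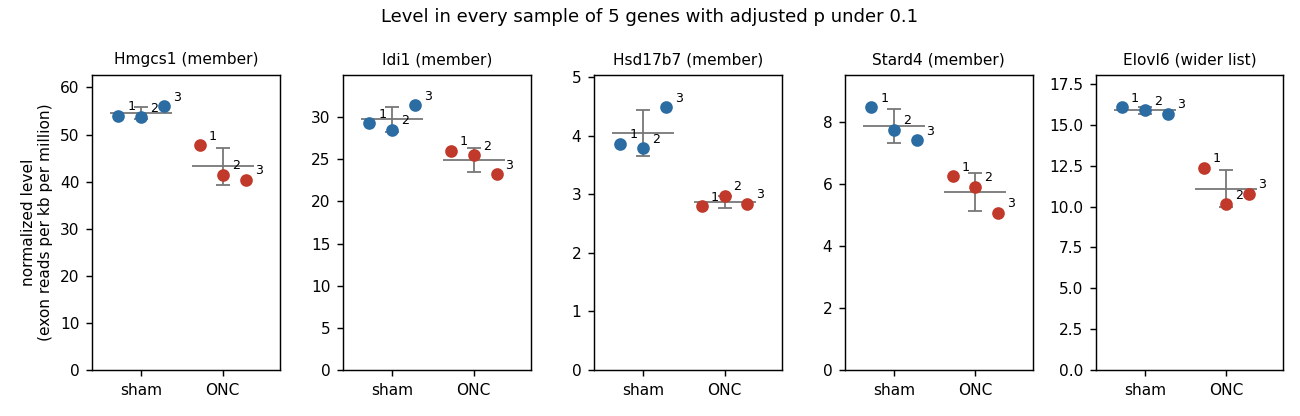
Normalized level (exon reads per kilobase of exon and TMM-scaled library size, y axis from 0) of 5 genes in the 3 sham (blue) and 3 ONC (red) samples, with the replicate number beside each point and the mean and SD in grey. For Hmgcs1, Idi1, Hsd17b7 and Stard4 of the 30 genes and for Elovl6 of the wider list described below, every ONC point lies under every sham point.

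Among the other 5 mevalonate enzymes none changed. Fdps, which joins isoprenoid units into farnesyl diphosphate, came nearest, with 51.4, 47.0 and 46.8 in sham against 42.3, 43.9 and 41.9 in ONC. The ONC samples were all lower, but the log2 fold change of -0.18 (SE 0.073) had an adjusted p of 0.208 (edgeR's quasi-likelihood test, Benjamini-Hochberg). Acat2, the thiolase at the pathway's entry, had levels of 11.4, 11.8 and 12.9 in sham and 11.1, 11.6 and 10.1 in ONC (log2 fold change -0.14), and with 49.0 to 59.3% of its reads unique and a predicted gene, Gm20591, over the same bases, its count is uncertain. The groups overlapped for Acat2, and likewise for the pair of kinases and the decarboxylase that follow the reductase. The mevalonate kinase Mvk stood at 13.0, 12.1 and 10.7 in sham and 11.4, 12.6 and 9.68 in ONC. The phosphomevalonate kinase Pmvk stood at 21.6, 22.8 and 23.2 against 20.9, 23.4 and 25.1, and the decarboxylase Mvd at 6.83, 9.40 and 8.13 against 9.0, 7.96 and 8.47. Their log2 fold changes were -0.09, 0.04 and 0.06, each smaller than its SE (0.130, 0.098 and 0.142).

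None of the 3 enzymes that make and close squalene changed in edgeR's quasi-likelihood test or in DESeq2's Wald test, and 1 had an unadjusted p under 0.05, against 16.7% of all tested genes. Fdft1, the squalene synthase, was at 28.3, 31.3 and 29.7 in sham and 28.7, 26.1 and 24.9 in ONC, with a log2 fold change of -0.17 (SE 0.073). Its ONC replicate 1 lay among the sham samples, so the groups overlapped. The span of Fdft1 also overlaps that of the gene Ctsb. Sqle, the monooxygenase that is the second control point of the pathway, was at 24.0, 24.5 and 24.2 in sham and 22.9, 22.1 and 23.2 in ONC. Its ONC samples were all lower, by a narrow margin (log2 fold change -0.09, SE 0.071, 95% interval -0.24 to 0.06). Lss, which closes the ring to lanosterol, was at 10.5, 10.4 and 9.17 against 10.1, 9.38 and 9.93 (log2 fold change -0.03), with 61.7 to 73.1% unique reads and another annotated transcript over it.

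Of the 7 enzymes listed between lanosterol and cholesterol, Hsd17b7 alone changed, by edgeR as by DESeq2. Cyp51, the lanosterol demethylase, was at 16.7, 16.7 and 16.9 in sham and 15.8, 15.6 and 15.8 in ONC. These groups did not overlap, yet the log2 fold change of -0.09 (SE 0.068) did not pass (adjusted p = 0.538, edgeR's quasi-likelihood test, Benjamini-Hochberg). Nsdhl, which works on the same demethylation as Hsd17b7, was at 10.9, 10.3 and 9.88 against 9.99, 8.28 and 8.42, with a log2 fold change of -0.22 (SE 0.118) and overlapping groups. Tm7sf2, a sterol reductase, was the most scattered, at 6.74, 8.44 and 7.17 against 4.81, 7.30 and 6.38 (log2 fold change -0.27, SE 0.175). Its span overlaps that of the gene Vps51. Without strand, reads of the 2 genes on shared bases cannot be told apart, and how many such reads there were was not computed. Sc5d, the desaturase near the end of the pathway, was at 18.9, 18.6 and 20.2 against 18.6, 17.8 and 16.4 (log2 fold change -0.13). Dhcr7, the reductase that makes cholesterol from 7-dehydrocholesterol, was at 10.6, 9.26 and 11.2 against 10.7, 8.98 and 10.9 (log2 fold change -0.02). Ebp, the sterol isomerase, ran the other way, at 10.1, 9.48 and 12.4 in sham and 12.9, 12.5 and 11.4 in ONC. Its log2 fold change of 0.20 (SE 0.127) did not pass either, and sham replicate 3 lay among the ONC samples. Sc4mol, the methylsterol monooxygenase, had levels of 31.9, 32.0 and 32.5 in sham and 30.4, 38.8 and 34.7 in ONC (log2 fold change 0.11, SE 0.085). Here ONC replicate 1 was the lowest of the 6 samples and ONC replicate 2 the highest.

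The 4 enzymes of fatty acid and glycerolipid synthesis gave 0 calls by edgeR and by DESeq2, with 2 at an unadjusted p under 0.05 (16.7% over all tested genes), and in all 4 the groups overlapped. Fasn, the fatty acid synthase, was at 21.0, 23.1 and 21.99 in sham and 22.8, 15.4 and 17.2 in ONC. Scd2, the more abundant of the pair of stearoyl-CoA desaturases listed, was at 94.9, 97.0 and 98.6 against 98.7, 79.4 and 82.7, and Scd1 at 3.0, 3.1 and 3.8 against 3.6, 2.2 and 2.7. In these 3 genes ONC replicate 1 stood within or above the sham samples, while ONC replicates 2 and 3 stood below all of them. The log2 fold changes were -0.26 (SE 0.098) for Fasn, -0.16 (SE 0.068) for Scd2 and -0.22 (SE 0.163) for Scd1, with adjusted p of 0.175, 0.251 and 0.533 in edgeR's quasi-likelihood test with Benjamini-Hochberg adjustment. Lpin1, a phosphatidate phosphatase of glycerolipid synthesis, hardly differed, at 11.2, 11.1 and 10.4 against 11.0, 10.5 and 10.2 (log2 fold change -0.05, SE 0.074).

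None of the 4 regulators changed by edgeR or by DESeq2, and 2 had an unadjusted p under 0.05, beside 16.7% of all tested genes. Srebf2, which encodes the SREBP that favors cholesterol genes, was at 33.0, 34.6 and 33.2 in sham and 34.5, 25.8 and 28.4 in ONC. It had the same layout as Fasn and Scd2, with ONC replicate 1 among the sham samples and the other 2 ONC samples below them (log2 fold change -0.18, SE 0.082, adjusted p = 0.254 by edgeR's quasi-likelihood test with Benjamini-Hochberg adjustment). Srebf1, which encodes the SREBPs that favor fatty acid genes, was at 24.8, 29.8 and 29.4 against 29.8, 23.7 and 26.3 (log2 fold change -0.07, SE 0.084). The span of Srebf1 overlaps that of the gene Rai1. Scap was level between the groups, at 36.7, 39.7 and 40.9 in sham and 41.1, 39.4 and 37.1 in ONC, with a 95% interval for its log2 fold change of -0.13 to 0.14. Insig1, itself a target of SREBPs, was at 34.5, 33.8 and 38.1 against 33.2, 31.7 and 30.5. Its ONC samples were all lower, and its log2 fold change of -0.16 (SE 0.070) had an adjusted p of 0.259 (edgeR's quasi-likelihood test, Benjamini-Hochberg).

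The efflux side gave 0 calls in 4 genes by edgeR and by DESeq2, with 2 at an unadjusted p under 0.05, 1 in each direction, where 16.7% of all tested genes passed. Abca1, the pump that loads lipid-poor apolipoproteins, was at 5.22, 5.99 and 5.03 in sham and 5.69, 4.99 and 4.78 in ONC (log2 fold change -0.07, SE 0.089). Abcg1, the pump that passes sterol to lipoprotein particles, was at 20.5, 20.5 and 19.3 against 19.4, 16.4 and 18.1 (log2 fold change -0.16, SE 0.070, adjusted p = 0.240 by edgeR's quasi-likelihood test with Benjamini-Hochberg adjustment). The groups overlapped in both pumps, in Abcg1 by a narrow margin. Nr1h2, which encodes LXR beta, was at 32.7, 31.7 and 32.4 in sham and 39.2, 35.8 and 37.4 in ONC. Every ONC sample was higher, and the log2 fold change of 0.22 (SE 0.071) fell just outside the threshold (adjusted p = 0.107, edgeR's quasi-likelihood test, Benjamini-Hochberg). Divided by all reads on genes, as in the deposited RPKM, Nr1h2 passed with a log2 fold change of 0.34 (adjusted p = 0.0172, the same test). Nr1h3, which encodes LXR alpha, was near the bottom of the range at 1.80, 1.22 and 1.74 against 1.59, 2.09 and 1.61, from 45 to 87 exon reads per sample, and its 95% interval of -0.44 to 0.75 spans changes in either direction.

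Set side by side, the 21 synthesis enzymes had a median log2 fold change of -0.14, the 4 efflux genes one of 0.04 and all tested genes one of 0.01. Below 0 were 18 of the 21 synthesis enzymes, 2 of the 4 efflux genes and 47.7% of all tested genes. Sc4mol, a synthesis enzyme not counted in the 21, was above 0 (log2 fold change 0.11). The sign of the synthesis genes depends on the scaling in part: with the scaling of RPKM the median of all tested genes moved to 0.13, that of the synthesis enzymes to -0.01 and that of the efflux genes to 0.16, and 12 of the 21 enzymes were then below 0. Relative to the median of all genes, the synthesis enzymes stood at -0.15 under TMM and -0.14 under the scaling of RPKM, and the efflux genes at 0.03 under both. The same number of synthesis enzymes, 18 of 21, lay below the median of all genes in either scaling. Both scalings use the same exon reads and differ in library size alone. Values relative to that median could therefore hardly differ between them, and their likeness is no check of the result. With 4 efflux genes, no test of the contrast between the lists was made.

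**Figure D2:**
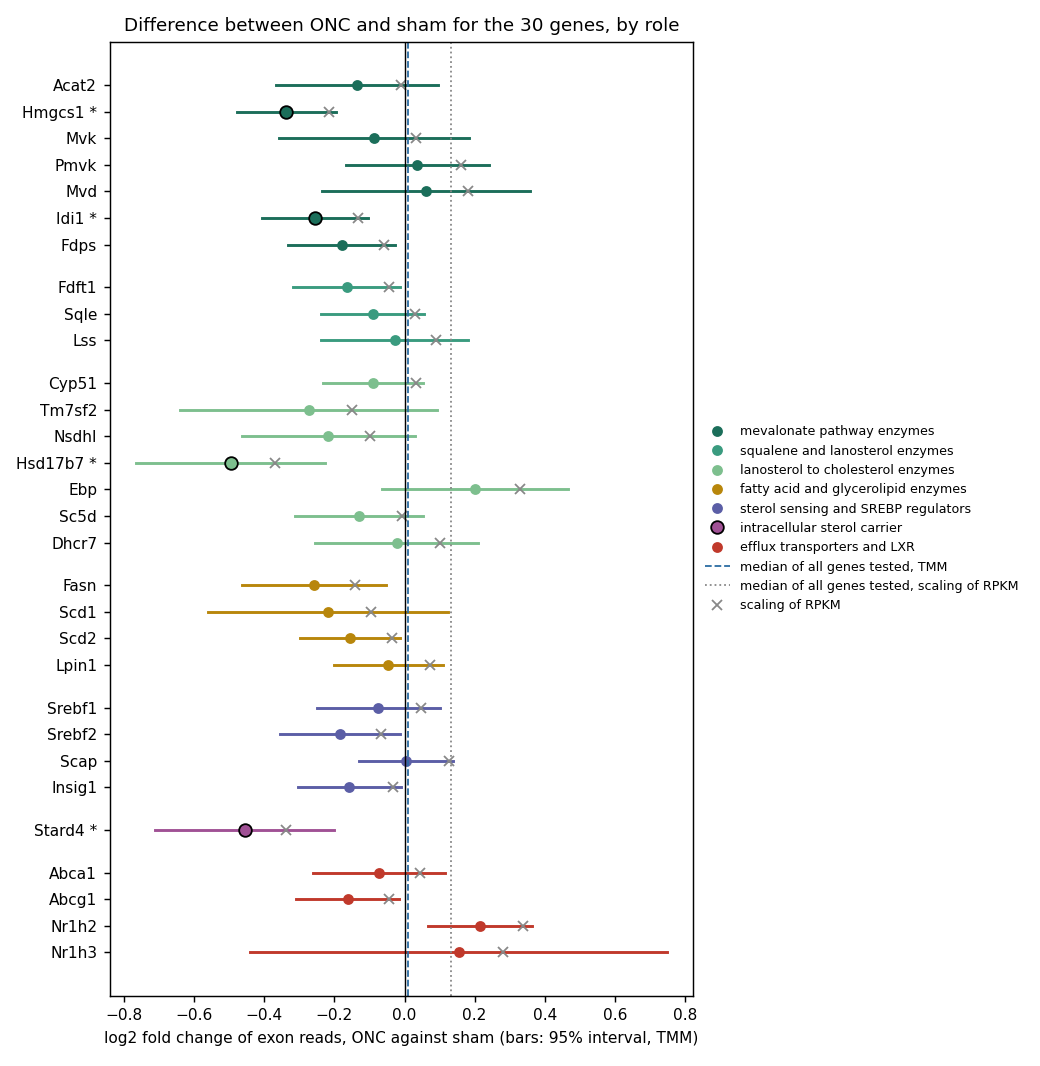
Log2 fold change of exon reads, ONC against sham (x axis), for each of the 30 genes in order of role, with 95% intervals under TMM (colored points and bars), the value under the scaling of RPKM (grey crosses), and the median of all 13670 tested genes under each (dashed and dotted lines). Asterisks and black rims mark the 4 genes with adjusted p under 0.1, and the other 26 have TMM values from -0.27 to 0.22.

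The samples of a group were not alike for these genes. Taking for each gene its log2 deviation from its own mean over the 6 samples, the median over the 17 cholesterol enzymes was 0.041, 0.067 and 0.081 in the sham samples and -0.021, -0.054 and -0.116 in the ONC samples. The groups did not overlap on this measure, which uses TMM-scaled levels. In deposited RPKM, where sham replicate 3 is scaled lower than the other samples, they overlap. For the 4 fatty acid and glycerolipid enzymes the medians were 0.059, 0.069 and 0.122 in sham and 0.148, -0.293 and -0.151 in ONC, and for the 4 regulators -0.027, 0.077 and 0.096 in sham and 0.103, -0.140 and -0.108 in ONC. ONC replicate 1 was thus the highest of the 6 samples for the fatty acid enzymes and for the regulators, and the ONC sample nearest to sham for the cholesterol enzymes. For the 4 efflux genes the medians were 0.049, -0.012 and -0.019 in sham and 0.073, -0.018 and -0.054 in ONC, with the groups interleaved. Over all tested genes no sample was off by more than 0.01 on this scale. TMM scaling largely sets that in advance, so it is no check of the list medians. Without ONC replicate 1, 11 of the 30 genes fell, the first 4 and Fdft1, Fasn, Scd1, Scd2, Srebf2, Insig1 and Abcg1. The number of changed genes in either direction then rose from 833 to 2031 of the 13670 tested. How many of the 2031 fell is not given, so the 11 falls have no matching share. Without ONC replicate 3, Hmgcs1 alone was called.

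**Figure D3:**
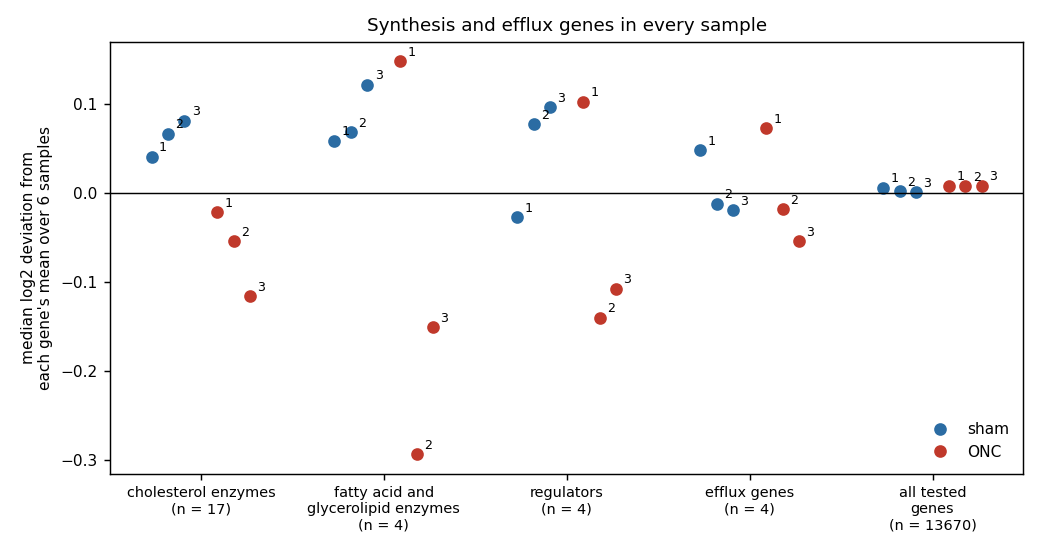
Median log2 deviation of the genes of a list from each gene's mean over the 6 samples (y axis), for the cholesterol enzymes, the fatty acid and glycerolipid enzymes, the regulators, the efflux genes and all tested genes, in the sham (blue) and ONC (red) samples with replicate numbers. Under TMM, though not in deposited RPKM, the cholesterol enzymes separate the groups, from 0.041 to 0.081 in sham and from -0.116 to -0.021 in ONC. ONC replicate 1 tops the fatty acid enzymes, the regulators and the efflux genes.

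A wider list of other genes of synthesis and uptake, as far as it is reported here, held 18 genes in the data, of which 17 were tested. Of the 17, 1 fell and 0 rose, against 3.72 and 2.38% of all tested genes, and the median log2 fold change was -0.05. The list is incomplete, so nothing is read from this count. The gene that fell was Elovl6, which elongates the products of Fasn. Its level was 16.1, 15.9 and 15.7 in sham and 12.4, 10.2 and 10.8 in ONC. The sham samples lay close together and every ONC sample was lower (log2 fold change -0.52, SE 0.076, adjusted p = 0.000242 by edgeR's quasi-likelihood test with Benjamini-Hochberg adjustment). Elovl6 fell under each of the 17 alternative settings, with log2 fold changes from -0.60 to -0.36. The matching list of other efflux, LXR partner, storage and oxysterol genes held 17 genes, 16 of them tested, with 0 changed by edgeR and a median log2 fold change of 0.03. At an unadjusted p under 0.05 stood 2 of the 17 in the first list and 2 of the 16 in the second, against 16.7% of all tested genes. Under the scaling of RPKM, where 223 of all tested genes fell and 1507 rose, the first list had 1 fall and 2 rises (Me1 and Acsl3) with a median of 0.07, and the second 0 falls and 1 rise (Rxrb) with a median of 0.16. These 3 genes are named after their values were seen.

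Reads on introns, which can come from RNA not yet spliced, were a further readout of the same libraries. They could be tested for 28 of the 30 genes. Of these 1 changed, Abcg1, against 2.70% of the 13391 genes tested on introns. Its intron reads numbered 463, 461 and 510 in sham and 181, 234 and 337 in ONC, with every ONC sample lower, and the log2 fold change was -0.92 (SE 0.168, adjusted p = 0.0408 by edgeR's quasi-likelihood test with Benjamini-Hochberg adjustment). The call was lost without ONC replicate 2, without ONC replicate 3 and without sham replicate 2. In these settings 0, 1 and 0 genes passed over all genes tested on introns, where all samples gave 361, and leaving out one of the others gave 88 to 913. Intron reads made up 23.4 to 29.1% of reads on genes in sham but 19.6 to 21.5% in ONC. Its exon reads were lower by a log2 fold change of -0.16, which did not pass. For the genes whose exon reads fell, the intron log2 fold change was -0.19 (SE 0.334) for Hmgcs1, 0.56 (SE 0.579) for Idi1 and 0.31 (SE 0.708) for Hsd17b7, each smaller than its SE, and Stard4 had too few intron reads to test. Over the 28 genes the median was 0.20, with 10 below 0 and 18 above, and over all genes tested on introns it was 0.03.

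**Figure D4:**
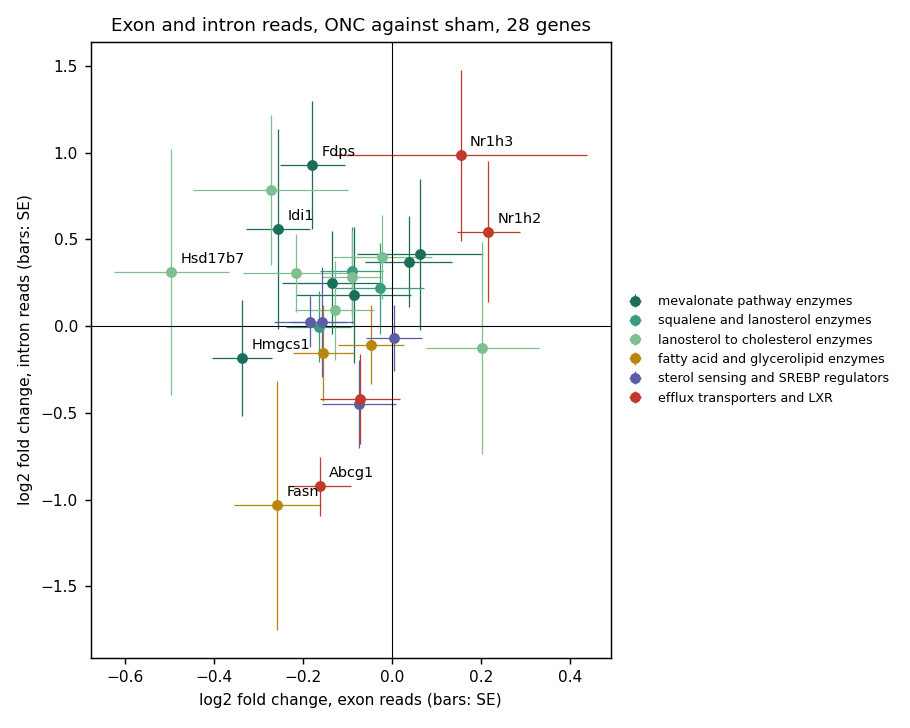
Log2 fold change of intron reads (y axis) against that of exon reads (x axis), ONC against sham, for the 28 genes with enough intron reads, colored by role, with the SE of each as bars. The intron bars are longer than the exon bars, and Abcg1, at -0.92 on introns, is the gene that passed the test there.

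Markers of some retinal cell types differed between the same groups. The sums below are of deposited RPKM, a scaling under which the median log2 fold change of all tested genes was 0.13. The calls and log2 fold changes are under TMM. The summed RPKM of 9 RGC markers was 432 to 451 in sham and 320 to 337 in ONC, and 8 of the 9 fell while Slc17a6 rose (log2 fold change 0.26). That of 10 microglia and macrophage markers was 11.5 to 15.1 in sham and 21.3 to 24.3 in ONC, and 3 of the 9 tested rose. The 8 Müller glia markers summed to 882 to 1005 in sham and 969 to 1010 in ONC with 0 changed, and of the 7 myelin markers Mag, Mobp and Cldn11 were below the filter in every sample, with a sum of 6.35 to 7.70 in sham and 5.65 to 8.29 in ONC. Astrocyte markers summed to 10.4 to 13.1 in sham and 13.0 to 17.2 in ONC, with 0 of the 3 tested changed. The 9 rod and cone markers summed to 19962 to 20720 in sham and 21824 to 23239 in ONC, without overlap, and 2 of them rose. Under TMM their median log2 fold change was 0.06, with 3 of the 9 below 0. The 7 endothelial and mural markers summed to 36.8 to 41.3 in sham and 36.7 to 42.6 in ONC with 0 changed, 6 of the 7 log2 fold changes were below 0 and their median was -0.25. The 7 pigment epithelium markers summed to 53.2 to 77.8 and 49.8 to 76.0, also with 0 changed. The part of these cell types in the differences of the synthesis genes was not tested.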

How the data were processed

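The members and gene lists were chosen with earlier results of these data known. Mapping by the authors was done in CLC Genomics Workbench 6.0.1 with up to 2 mismatches, and they deposited per sample the read counts per gene (exon reads and gene reads, total and unique, not normalized) and RPKM values, which divide exon reads by exon length and by all reads on genes, those on introns included. The labels name mm9, but 93.7% of the gene starts in the files lie within 2000 bases of RefSeq GRCm38.p6, so positions are given as GRCm38. Libraries were made with an unstranded TruSeq kit. Here the 3 ONC and 3 sham samples, grouped by their labels, were compared on total exon reads with edgeR 4.0.16 (TMM, quasi-likelihood test, Benjamini-Hochberg adjustment over all genes tested). Intron reads are gene reads minus exon reads. Every listed gene in the data is named with its values, and genes of the wider lists are named where the adjusted p was under 0.1. Some genes of the wider lists are not reported here. Alternatives were DESeq2 1.42.0, limma 3.58.1 on log2(RPKM + 0.1) and log2(RPKM + 1), other scalings, filters and read classes, a replicate block, and leaving out each sample. No pair of samples agreed within sampling noise. Sequences are from RefSeq (GRCm38.p6). The authors' group means were not used.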

Additional observations from a re-analysis of the deposited data

How the results depend on the processing

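The number of the 30 genes that changed stayed within 1.5 times 4 under DESeq2's Wald test (4), DESeq2 size factors (4), the sum of exon reads (5), total gene reads (5), unique exon reads (3), no filter (6), a mean RPKM above 1 (4) and an adjusted p under 0.05 (3). Over all tested genes 833 changed in the main fit. In the first 7 of these settings, in the order given, 932, 841, 841, 1133, 851, 1176 and 823 changed. The settings with no filter and with a mean RPKM above 1 tested other sets of genes. For an adjusted p under 0.05 the number over all genes is not given. The genes called among the 30 were not always the same. Nr1h2 rose with the sum of exon reads and with total gene reads. Idi1 was lost with total gene reads, with unique exon reads and at an adjusted p under 0.05. Total gene reads added a fall of Abcg1, and no filter added falls of Fasn and Srebf2. The numbers of the samples did not pair them (correlations of -0.047, -0.038 and -0.0053), and a replicate block gave the same 4 genes, 728 changed genes over the retina and 1 on introns. The scaling of RPKM gave 2 genes, Hmgcs1 lower and Nr1h2 higher, with 1730 changed over the retina. Limma on log2(RPKM + 0.1) and on log2(RPKM + 1) gave 1 gene each, Nr1h2, with 1121 and 1158 changed over the retina. Leaving out one sample gave 1 to 11 of the 30 genes, 371 to 2031 over the retina and 0 to 1 of the 28 on introns. The 11 came without ONC replicate 1 and the 1, Hmgcs1, without ONC replicate 3. Without sham replicate 2 the calls were Hmgcs1 and Hsd17b7, and without sham replicate 3 Hmgcs1 and Stard4. The cause was not tested. In each of these settings 0 of the 30 genes passed the DEG thresholds.

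The median log2 fold change of the synthesis enzymes moved to -0.011 under the scaling of RPKM and to -0.014 and -0.012 under limma with pseudocounts 0.1 and 1. That of the efflux genes moved to 0.16, 0.16 and 0.099 under the same settings, to 0.095 with total gene reads, and ran from -0.023 to 0.092 when a sample was left out.

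Genes that were not called and lay near 0 changed sign in some settings. Under the scaling of RPKM, limma with 0.1 and limma with 1, in this order, the log2 fold changes were 0.033, 0.032 and 0.029 for Mvk, 0.030, 0.031 and 0.030 for Sqle, 0.089, 0.095 and 0.084 for Lss, and 0.032, 0.032 and 0.030 for Cyp51. They were 0.10, 0.098 and 0.088 for Dhcr7, 0.073, 0.075 and 0.068 for Lpin1, 0.047, 0.047 and 0.045 for Srebf1, and 0.045, 0.049 and 0.040 for Abca1. Dhcr7 was also at 0.0024 with the sum of exon reads, and Lss and Dhcr7 were at 0.017 and 0.048 with total gene reads. Scap was at -0.00091 under DESeq2 size factors and under DESeq2's Wald test, at -0.00011 with a mean RPKM above 1 and at -0.00044 with unique exon reads. Leaving out one sample gave ranges of -0.18 to 0.0061 for Mvk, -0.032 to 0.11 for Pmvk, -0.054 to 0.18 for Mvd, -0.097 to 0.056 for Dhcr7, -0.045 to 0.037 for Scap, -0.15 to 0.0067 for Abca1 and -0.0062 to 0.25 for Nr1h3. Hmgcs1, Idi1, Hsd17b7, Stard4 and Elovl6 were lower in ONC under each of the 17 alternatives. The alternatives for Elovl6 were applied after the data were seen.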
